A study of Mus musculus with 9 samples.

Results

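The AP-1 transcription factors and immediate early genes were followed in murine leukaemia cells after knockdown of Syncrip, an RNA-binding protein. The group holds 10 genes chosen by name: Fos, Fosb, Fosl2, Jun, Junb, Jund, Egr1, Klf6, Ier2 and Atf3. They are 10 of the 38926 gene symbols in the count tables, and each symbol has 1 entry there. Of the 12663 genes with enough reads to be tested, 9 belong to the group, and Fosb is the one left out. The cells carry the MLL-AF9 fusion oncogene and had been passaged through tertiary transplantation. All 9 libraries were made from such cells at day 4 after transduction with a short hairpin RNA (shRNA). There were 3 libraries of a control hairpin, 3 of shRNA-1 against Syncrip and 3 of shRNA-2 against Syncrip. The sample labels call the control a scrambled hairpin, whereas the design text names a luciferase hairpin, so its target is uncertain here. The cultures were transduced and processed one by one, but the labels do not say whether the starting cells came from separate mice, so p-values measure only the spread between these cultures. Age and strain of the animals are not stated in the labels.

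Immediate early genes are transcribed within minutes of a stimulus, without new protein synthesis, from promoters that are already accessible. Many of them encode transcription factors, and their messenger RNAs are usually short-lived. AP-1 is a dimer of basic leucine zipper (bZIP) proteins, in which a FOS protein pairs with a JUN protein, JUN proteins pair with one another, or either pairs with an ATF protein. FOS proteins do not form stable homodimers and so depend on a JUN partner. In myeloid cells, AP-1, EGR1 and KLF6 are known for their part in monocyte and macrophage differentiation and in inflammatory gene expression.

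To show the regulatory sequence behind these genes, the stretch just upstream of the transcription start is printed for 5 of them, chosen because all 5 rose with shRNA-2 in the results that follow. Fosl2 rose too, but its stretch lies within an annotated exon and is not printed. Each covers bases 250 to 11 before the start, 240 bases in all, from RefSeq on GRCm38.p6, written 5′ to 3′ on the gene's strand. Of the 10 genes, 8 matched the RefSeq promoter table. The Atf3 stretch lies inside the annotated span of its gene (191170296 to 191218039), so it precedes an internal start and not the outermost one. Capitals mark TATAAA, a form of the TATA box, the letters TGACG, bound by CREB and ATF proteins in a longer site, and TGACNTCA (N is any base), the full site of that kind or a variant of it.
Fos, chr12:85473640-85473879, plus strand: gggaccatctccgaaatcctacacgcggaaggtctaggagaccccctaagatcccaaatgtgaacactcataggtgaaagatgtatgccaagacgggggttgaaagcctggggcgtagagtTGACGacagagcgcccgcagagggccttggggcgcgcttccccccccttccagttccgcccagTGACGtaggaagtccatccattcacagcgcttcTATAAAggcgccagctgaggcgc
Jun, chr4:95052233-95052472, minus strand: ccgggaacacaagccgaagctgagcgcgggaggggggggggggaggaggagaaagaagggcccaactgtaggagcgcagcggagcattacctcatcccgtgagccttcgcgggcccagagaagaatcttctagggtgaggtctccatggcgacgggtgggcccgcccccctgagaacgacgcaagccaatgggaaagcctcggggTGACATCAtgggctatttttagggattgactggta
Junb, chr8:84978759-84978998, minus strand: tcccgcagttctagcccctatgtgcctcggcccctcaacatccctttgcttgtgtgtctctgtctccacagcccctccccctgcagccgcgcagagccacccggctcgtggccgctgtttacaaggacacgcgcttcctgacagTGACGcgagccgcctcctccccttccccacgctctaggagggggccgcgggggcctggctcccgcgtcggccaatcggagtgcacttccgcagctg
Klf6, chr13:5861239-5861478, plus strand: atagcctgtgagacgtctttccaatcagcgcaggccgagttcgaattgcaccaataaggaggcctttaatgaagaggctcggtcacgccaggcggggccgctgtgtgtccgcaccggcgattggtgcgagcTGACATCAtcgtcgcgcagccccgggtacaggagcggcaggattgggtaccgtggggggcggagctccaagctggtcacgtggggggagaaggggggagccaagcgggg
Atf3, chr1:191183344-191183583, minus strand: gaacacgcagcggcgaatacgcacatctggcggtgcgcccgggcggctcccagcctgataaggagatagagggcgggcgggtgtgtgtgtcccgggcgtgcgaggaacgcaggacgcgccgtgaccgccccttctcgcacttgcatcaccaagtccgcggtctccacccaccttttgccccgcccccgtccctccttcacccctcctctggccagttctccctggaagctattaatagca
The Fos sequence has TATAAA at bases 33 to 28 before the start and TGACG at 2 places, beginning 129 and 66 bases before it. Jun has TGACNTCA from base 45 to base 38 before the start, and Klf6 has it from base 119 to base 112. Junb has TGACG from base 106. In Atf3 none of these was found, but its sequence holds GGGCGG 5 times, with overlapping matches counted separately. Fos, Jun and Klf6 hold GGGCGG 1 time each, and Junb does not hold it. Both strands were searched for each motif, a match to the long site can contain the short one, and the motifs were chosen after the sequences were seen. TATAAA occurs in 12.1% of 32851 mouse promoters over the same bases, TGACG in 16.9%, TGACNTCA in 7.17% and GGGCGG in 31.3%. TGANTCA, the usual AP-1 letters, occurs in 6.58% of them and in none of the 5 printed. These matches describe letters and were not tested for binding.

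Total counts ran from 9559638 to 19483923 per library. Syncrip itself was at 241, 231 and 207 CPM (read counts divided by library size, with libraries scaled by the trimmed mean of M-values, TMM) in the control libraries. It was at 20.1, 15.9 and 17.3 CPM with shRNA-1 and at 63.2, 46.3 and 60.4 CPM with shRNA-2, so shRNA-1 left less of it. Macrophage and monocyte markers summed to 695 to 964 CPM in the control, 800 to 894 CPM with shRNA-1 and 1156 to 1851 CPM with shRNA-2. Ly6c2, with means of 682, 661 and 727 CPM in the same order, gave most of the sum in the control and shRNA-1 libraries. In those libraries the sum therefore follows Ly6c2 more than the other markers. Of the 9 such markers tested, 1 rose with shRNA-1 (17.4% of all genes tested did) and 8 rose with shRNA-2 (24.4% of all genes tested did), and the median log2 fold changes were 1.12 and 2.73. The number of these markers that rose with both hairpins, 1, was 4 without shRNA-2 replicate 1, 3 without shRNA-1 replicate 1, 2 without shRNA-2 replicate 2 and 0 with the ribosomal RNA share in the fit. Ribosomal RNA took 4.77% to 8.29% of counts in the control, 12.0% to 19.3% with shRNA-1 and 6.10% to 15.8% with shRNA-2. The control and shRNA-1 ranges did not overlap, so a fit that includes this share cannot cleanly separate it from shRNA-1. Heat shock genes listed for handling stress summed to 1290 to 1405 CPM in the control. They summed to 1069 to 1113 CPM with shRNA-1 and 752 to 977 CPM with shRNA-2. Most of that sum was Hspa8 (means of 677, 687 and 467 CPM in the control, shRNA-1 and shRNA-2) and Hsp90aa1 (523, 257 and 289 CPM). Hspa1a (0.82, 0.69 and 0.91 CPM) and Hspa1b (1.72, 1.26 and 1.27 CPM) were near the floor. Handling stress itself was not tested. All 6 genes of the myeloid leukaemia list, Ptprc, Itgam, Spi1, Cebpa, Kit and Mpo, were tested, and they summed to at least 773 CPM in every library. Within that list Mpo, the myeloperoxidase of granulocyte and monocyte precursors, moved far with shRNA-1, from a mean of 21.1 CPM in the control to 526 CPM (4.64 ± 0.29, edgeR adjusted p = 8.26e-06), and fell to 8.64 CPM with shRNA-2 (-1.30 ± 0.27, edgeR adjusted p = 0.00219). Ptprc and Cebpa fell with shRNA-1 (-0.66 ± 0.14 and -0.47 ± 0.13), and Itgam rose (0.94 ± 0.15) and Kit fell (-0.81 ± 0.19) with shRNA-2. The part of such shifts in cell state in the results that follow was not tested. Of other cell types, T cell markers summed to at most 1.66 CPM (Cd3g and Cd8a at 0 in every library) and erythroid markers to at most 1.57 CPM. B cell markers summed to at most 17.8 CPM, nearly all of it Cd79b, with Cd79a at 0. Stromal and endothelial markers summed to 6.04 to 32.2 CPM, with the lowest sums with shRNA-1. Most of that was Pecam1 (means of 23.7, 6.59 and 18.1 CPM in the control, shRNA-1 and shRNA-2), and Cdh5 and Col1a2 stayed at or under 0.0884 CPM.

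**Figure D1:**
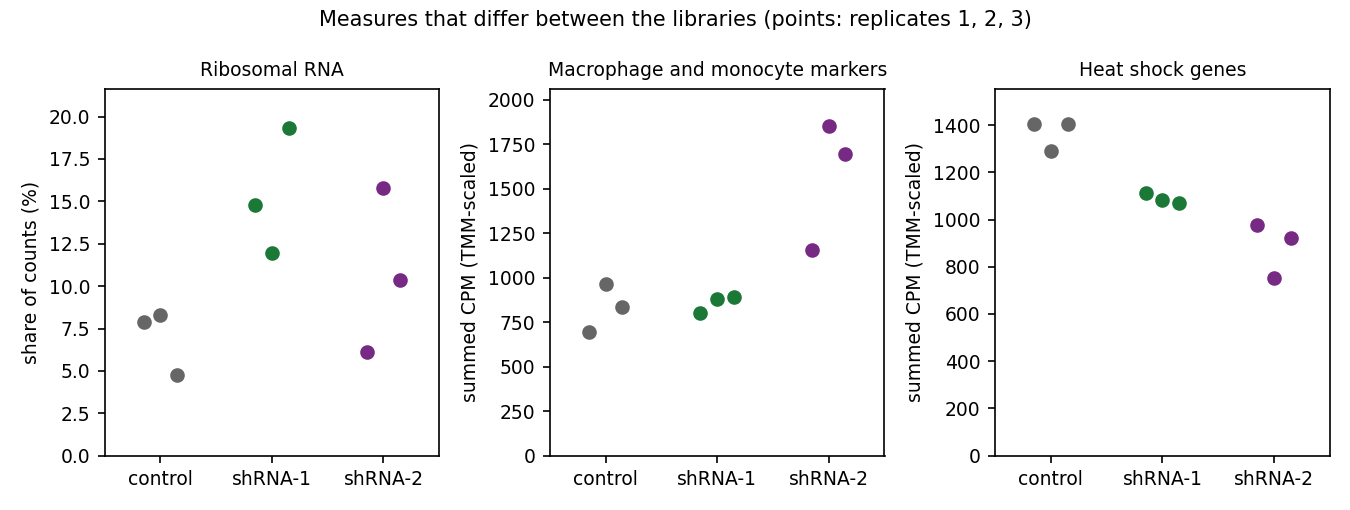
Share of counts from ribosomal RNA (%), summed CPM of macrophage and monocyte markers, and summed CPM of heat shock genes, 1 point per library, for the control, shRNA-1 and shRNA-2. The marker sum lies between 1156 and 1851 CPM in the shRNA-2 libraries and at or under 964 CPM in the other 6, whereas the heat shock sum is highest in the control. Ly6c2 makes up most of the marker sum in the control and shRNA-1 libraries, and Hspa8 and Hsp90aa1 make up most of the heat shock sum.

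Of the 9 genes tested, Fos, Fosl2, Egr1 and Klf6 rose and Jund fell with shRNA-1. With shRNA-2, Fos, Fosl2, Jun, Junb, Klf6 and Atf3 rose and none fell. Fos, Fosl2 and Klf6 are the 3 that rose with both hairpins. In the fit over all genes (edgeR's quasi-likelihood test, Benjamini-Hochberg adjusted p under 0.05), 34.7% of the 12663 genes changed with shRNA-1, 17.4% higher and 17.3% lower, so the 5 of 9 stand against a broad background. With shRNA-2, 48.7% changed, 24.4% higher and 24.2% lower, beside 6 of 9 here. Of all genes, 18.8% changed the same way with both hairpins, 9.24% higher and 9.57% lower, and 2.66% changed in opposite directions; none of the 9 genes did the last. The 2 comparisons share the 3 control libraries. The median log2 fold change of the 9 genes was 0.41 with shRNA-1 and 1.57 with shRNA-2, against 0.023 and 0.0043 over all genes tested. The control and knockdown libraries did not overlap for 4 of the 9 genes with shRNA-1 (52.6% of all genes tested) and for 7 of 9 with shRNA-2 (55.4%). In these bulk libraries, more cells of a type and more RNA per cell cannot be told apart. The rises with shRNA-2 came in the libraries with the highest macrophage and monocyte marker sums, and the part of those cells in the rises was not tested.

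**Figure D2:**
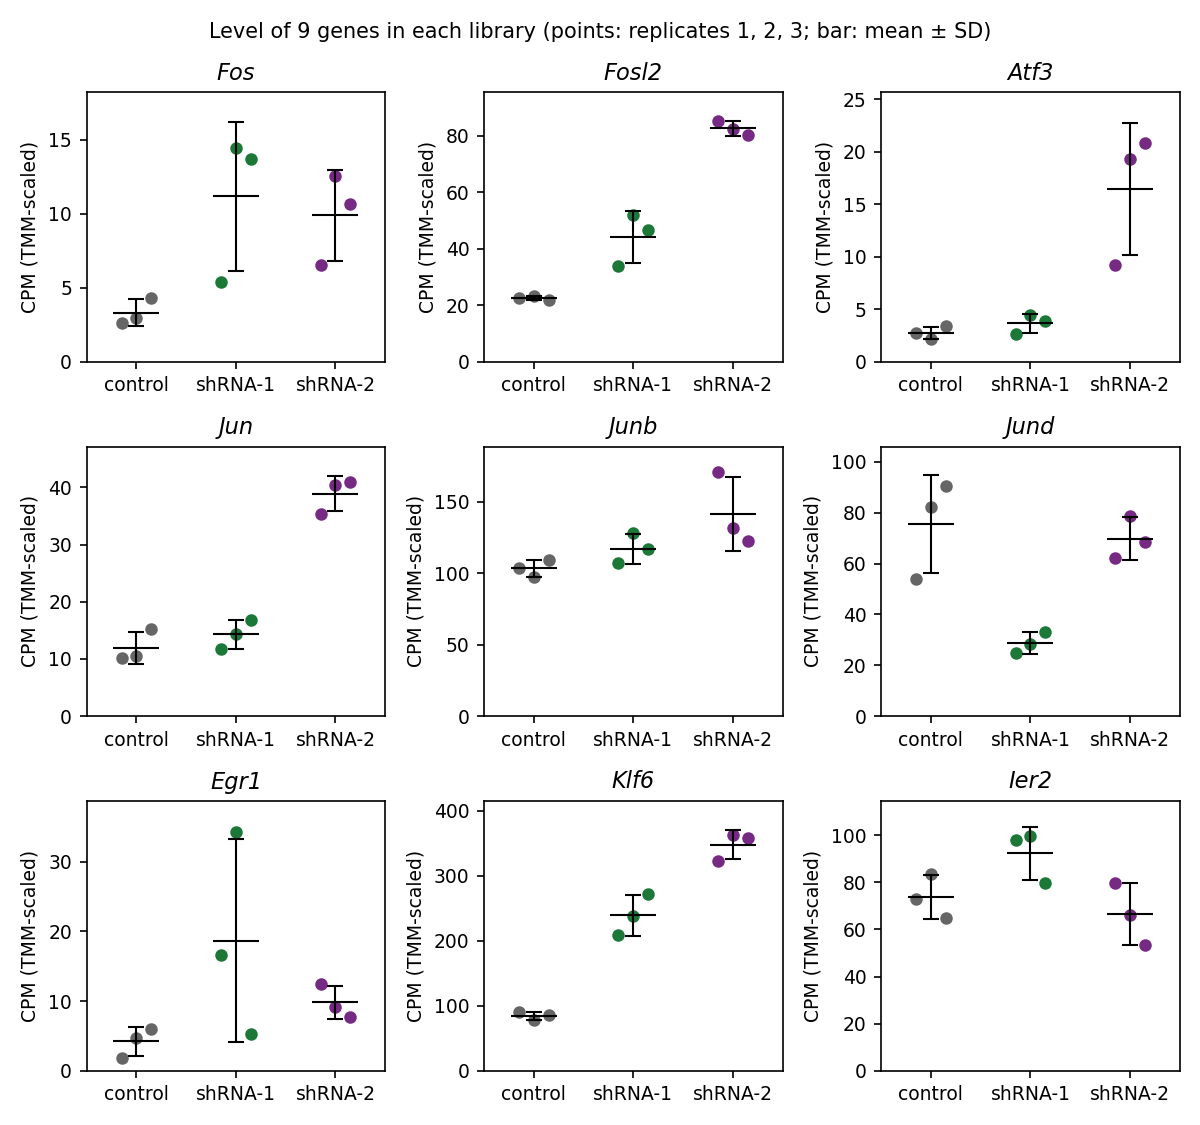
Level of each of the 9 tested genes in each library (TMM-scaled CPM, linear axes from 0), with points for the 3 replicates of the control, shRNA-1 and shRNA-2 and bars for mean ± SD. Fosl2 and Klf6 step up from control to shRNA-1 to shRNA-2 without overlap, Jun and Atf3 stand high with shRNA-2 alone, and Jund stands low with shRNA-1 alone.

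Among the FOS proteins, c-FOS, the product of Fos, is the classical serum-induced partner of JUN. Fos (chromosome 12, 85473890 to 85477273, plus strand, on mm10) was at 2.59, 2.98 and 4.33 CPM in the control libraries, at 5.38, 14.4 and 13.7 CPM with shRNA-1 and at 6.50, 12.5 and 10.7 CPM with shRNA-2. Every knockdown library lay above every control library, and replicate 1 was the lowest of its group in the control and under both hairpins. The log2 fold change was 1.76 ± 0.36 (SE; 3.38-fold, edgeR adjusted p = 0.00367) with shRNA-1 and 1.57 ± 0.36 (2.96-fold, edgeR adjusted p = 0.00373) with shRNA-2. These levels rest on 45 to 188 reads per library. With the log2 ribosomal RNA share added to the fit, the shRNA-1 change was 1.49 ± 0.54 and no longer passed (edgeR adjusted p = 0.0985). That share did not overlap between control and shRNA-1 libraries, so this fit cannot cleanly separate it from the hairpin.

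Fosl2 encodes FRA-2, a FOS protein that lacks the strong activation domain of c-FOS and usually appears later and for longer. Fosl2 (chromosome 5, 32135801 to 32157842, plus strand) was at 22.7, 23.3 and 21.9 CPM in the control, at 33.8, 52.0 and 46.8 CPM with shRNA-1 and at 85.3, 82.4 and 80.3 CPM with shRNA-2. The 3 groups did not overlap at all. It rose by 0.97 ± 0.15 on the log2 scale with shRNA-1 (1.96-fold, edgeR adjusted p = 0.000833) and by 1.87 ± 0.15 with shRNA-2 (3.66-fold, edgeR adjusted p = 3.39e-06). Those calls held in each alternative processing tried. Fosb (chromosome 7, 19302696 to 19310051, minus strand), whose protein is another inducible partner of JUN, gave 1 to 4 reads per library and 7, 5 and 5 reads in all in the control, shRNA-1 and shRNA-2 groups. At that depth no difference was detectable.

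Atf3 encodes a stress-induced bZIP protein that pairs with JUN proteins and restrains inflammatory genes in macrophages. Atf3 (chromosome 1, 191170296 to 191218039, minus strand) was at 2.74, 2.19 and 3.36 CPM in the control, at 2.64, 4.45 and 3.88 CPM with shRNA-1 and at 9.20, 19.3 and 20.8 CPM with shRNA-2. The shRNA-1 libraries overlapped the control, and all the shRNA-2 libraries lay above both. The change was 2.55 ± 0.31 with shRNA-2 (5.87-fold, edgeR adjusted p = 5.46e-05), the largest log2 fold change of the 9 genes in either comparison, and 0.41 ± 0.34 with shRNA-1 (edgeR adjusted p = 0.374). In the shRNA-2 group, the library with the lowest Atf3, replicate 1, also had the lowest macrophage and monocyte marker sum, 1156 CPM. Fos, Jun, Jund and Klf6 were lowest in that library too, whereas Fosl2, Junb, Egr1 and Ier2 were highest there. In the control and shRNA-1 groups as well, replicate 1 had the lowest marker sum and the lowest Fos, Jun and Jund. The same shRNA-2 library had the lowest ribosomal RNA share of its group, 6.10%. The part of macrophages and monocytes, or of the replicate number, in these levels was not tested.

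Jun encodes c-JUN, the most active of the JUN proteins and the main partner of c-FOS. Jun (chromosome 4, 95049034 to 95052222, minus strand) was at 10.1, 10.5 and 15.2 CPM in the control, at 11.8, 14.4 and 16.8 CPM with shRNA-1 and at 35.3, 40.4 and 41.0 CPM with shRNA-2. Control and shRNA-1 libraries were interleaved, and the shRNA-2 libraries lay above all 6. The rise with shRNA-2 was 1.70 ± 0.18 (3.24-fold, edgeR adjusted p = 2.01e-05), and the value with shRNA-1 was 0.26 ± 0.18 (edgeR adjusted p = 0.299). An antisense gene, Junos, overlaps 232 exon bases of Jun. Whether the authors counted by strand is not stated, so the overlap may affect the counts of such pairs.

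Junb encodes a weaker activator that can oppose c-JUN, and mice lacking it in the myeloid lineage develop a myeloproliferative disease. Junb (chromosome 8, 84974484 to 84978718, minus strand) was at 103.5, 96.9 and 109.2 CPM in the control, at 106.9, 127.8 and 116.7 CPM with shRNA-1 and at 170.8, 131.4 and 122.3 CPM with shRNA-2. The shRNA-2 libraries lay above the control, but replicate 1 alone stood far above. It rose by 0.46 ± 0.14 with shRNA-2 (1.37-fold, edgeR adjusted p = 0.0181), while the shRNA-1 value was 0.18 ± 0.14 (edgeR adjusted p = 0.337). The shRNA-2 call did not pass when libraries were scaled to total counts (0.24, edgeR adjusted p = 0.252) or without control replicate 2 (0.42, edgeR adjusted p = 0.0698). Junb shares 173 exon bases with Prdx2 on the opposite strand, and Prdx2 itself rose by 1.00 ± 0.16 with shRNA-2 (edgeR adjusted p = 0.000309).

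Jund encodes the JUN protein that is made most constantly and that often restrains growth. Jund (chromosome 8, 70698949 to 70700616, plus strand) was at 53.8, 82.2 and 90.4 CPM in the control, at 24.9, 28.3 and 33.2 CPM with shRNA-1 and at 62.2, 78.8 and 68.4 CPM with shRNA-2. All shRNA-1 libraries lay below the other 6, while control and shRNA-2 libraries overlapped. Jund fell by 1.39 ± 0.19 on the log2 scale with shRNA-1 (2.62-fold lower, edgeR adjusted p = 0.000473), and its value with shRNA-2 was -0.11 ± 0.19 (edgeR adjusted p = 0.637). It is the 1 gene of the 9 that fell in either comparison with the control. The antisense gene Gm11175, which overlaps 877 exon bases of Jund, had 0 to 2 reads per library.

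In the JUN family, the share of Jund lay below the control range with either hairpin and that of Jun above it, whereas in the FOS family the shares of Fosl2 and of Fos overlapped the control with either hairpin. Shares are of CPM summed over the family, not per length, so they are read between groups and not between genes. Within the JUN family, Jund made up 39.2% ± 6.13 (SD, n = 3) in the control, 17.96% ± 1.75 with shRNA-1 and 28.04% ± 4.33 with shRNA-2. Jun made up 6.22% ± 0.767, 8.90% ± 1.03 and 15.7% ± 2.29, and its ranges did not overlap between any of the groups. Junb took the rest, 54.6% ± 6.25, 73.1% ± 2.73 and 56.3% ± 6.39. The summed JUN family level was 191 ± 23.6 CPM in the control, 160 ± 14.6 CPM with shRNA-1 and 250 ± 18.3 CPM with shRNA-2. In the FOS family, Fosl2 held 86.9% ± 3.49, 80.4% ± 4.86 and 89.2% ± 3.13 of the sum. The FOS sum went from 26.02 ± 0.584 CPM in the control to 55.5 ± 14.4 CPM with shRNA-1 and 92.7 ± 2.03 CPM with shRNA-2. No test was run on shares or sums.

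**Figure D3:**
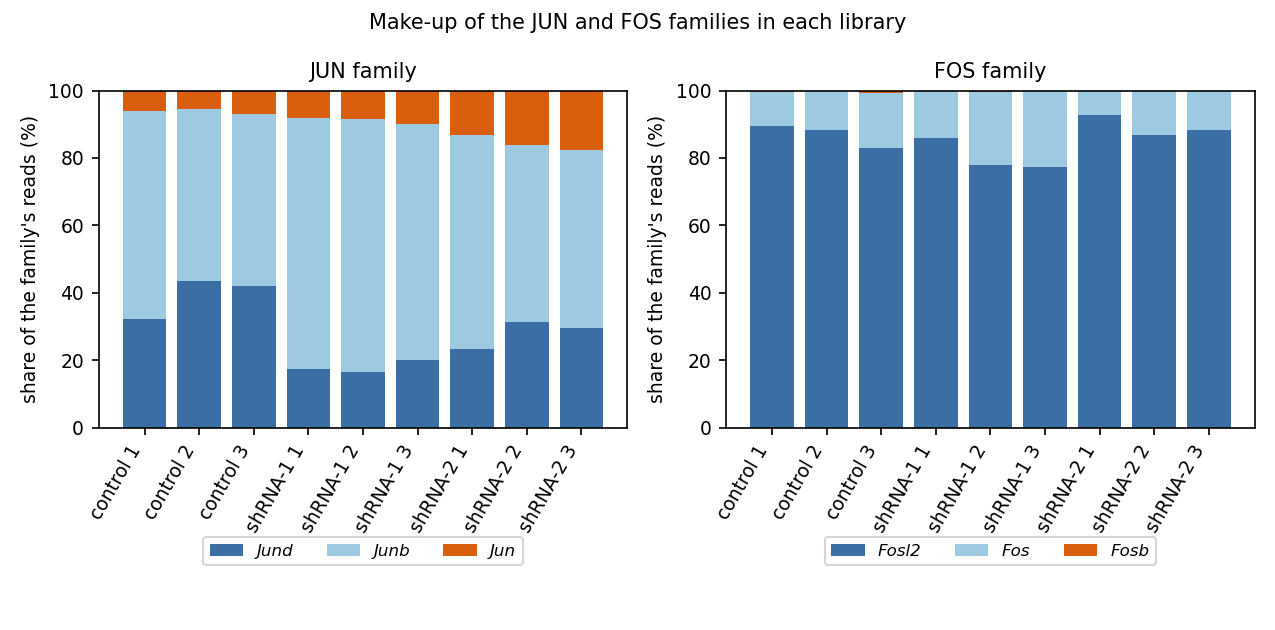
Share of each gene in the summed CPM of its family (%), 1 stacked bar per library, for the JUN family (Jund, Junb, Jun) and the FOS family (Fosl2, Fos, Fosb). Jund shrinks to 16.6% to 19.9% in the shRNA-1 libraries, and Jun reaches 13.2% to 17.7% in the shRNA-2 libraries.

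Egr1 encodes a zinc finger factor that is induced by serum and by monocyte differentiation signals. Egr1 was at 1.88, 4.64 and 6.06 CPM in the control, at 16.6, 34.3 and 5.26 CPM with shRNA-1 and at 12.5, 9.20 and 7.76 CPM with shRNA-2. With shRNA-1, replicate 3 lay inside the control range while replicate 2 was the highest of all 9, whereas every shRNA-2 library lay above the control. The call nevertheless fell to shRNA-1, at 2.16 ± 0.55 (4.48-fold, edgeR adjusted p = 0.0107), and not to shRNA-2, at 1.22 ± 0.55 (2.34-fold, edgeR adjusted p = 0.0850). Egr1 had the widest replicate spread of the 9 genes, with a biological coefficient of variation of 0.445 against a median of 0.155 over all genes. Without shRNA-1 replicate 2 the shRNA-1 call was lost (1.36, edgeR adjusted p = 0.0725) and the shRNA-2 call was gained (edgeR adjusted p = 0.0451). Whether both groups are above the control by the same amount cannot be judged from these libraries, since the hairpins differed by 0.94 ± 0.52 (edgeR adjusted p = 0.175).

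Klf6 encodes a zinc finger factor of the Krüppel-like family that is abundant in macrophages. Klf6 (chromosome 13, 5861482 to 5870394, plus strand) was at 89.7, 77.9 and 85.8 CPM in the control, at 208.4, 237.6 and 271.0 CPM with shRNA-1 and at 322.8, 362.3 and 357.9 CPM with shRNA-2. No library of one group overlapped another group. It rose by 1.5 ± 0.13 with shRNA-1 (2.83-fold, edgeR adjusted p = 3.64e-05) and by 2.04 ± 0.13 with shRNA-2 (4.11-fold, edgeR adjusted p = 1.11e-06). Its replicate spread was the smallest of the 9 genes, with a biological coefficient of variation of 0.124. Ier2 encodes a small nuclear protein made quickly after growth factor stimulation. Ier2 (chromosome 8, 84661331 to 84662852, minus strand) was at 73.1, 83.4 and 65.0 CPM in the control, at 97.8, 99.8 and 79.5 CPM with shRNA-1 and at 79.8, 66.4 and 53.5 CPM with shRNA-2. Each pair of groups overlapped, and neither hairpin passed against the control, at 0.32 ± 0.16 (edgeR adjusted p = 0.139) and -0.15 ± 0.16 (edgeR adjusted p = 0.468).

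**Figure D4:**
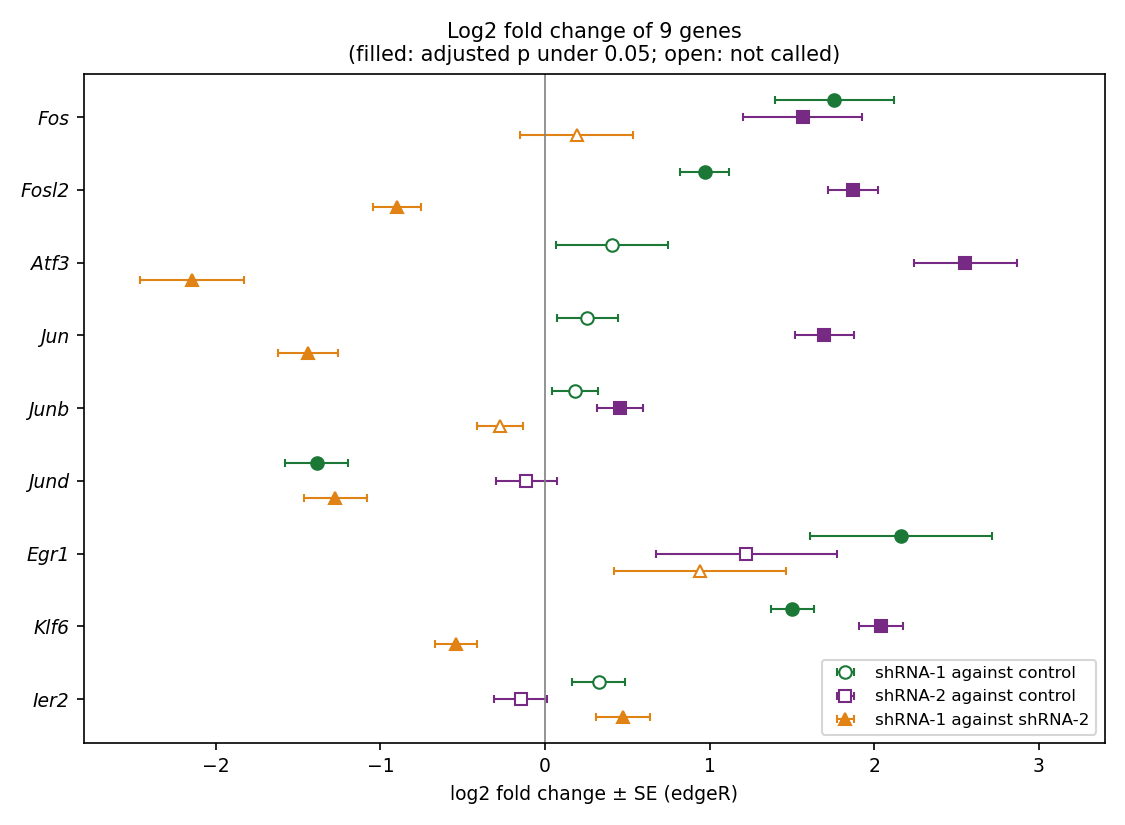
Log2 fold change ± SE (edgeR) of the 9 tested genes for shRNA-1 against control, shRNA-2 against control and shRNA-1 against shRNA-2, with filled symbols for an adjusted p under 0.05. Jun, Junb, Atf3, Jund and Egr1 pass against the control with one hairpin only, and Fosl2 and Klf6 lie to the right of 0 for both.

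The direct comparison of the hairpins separated 6 of the 9 genes, beside 41.0% of all genes (19.7% higher with shRNA-1 and 21.3% lower). Fosl2, Jun, Klf6, Atf3 and Jund were lower with shRNA-1 than with shRNA-2. The differences were -0.90 ± 0.15 for Fosl2 (edgeR adjusted p = 0.000535), -1.44 ± 0.18 for Jun (edgeR adjusted p = 9.53e-05) and -2.15 ± 0.32 for Atf3 (edgeR adjusted p = 0.000279). Klf6 differed by -0.54 ± 0.13 (edgeR adjusted p = 0.00542) and Jund by -1.27 ± 0.19 (edgeR adjusted p = 0.000318), and the libraries of these 5 genes did not overlap (49.8% of all genes tested). Ier2 was higher with shRNA-1, by 0.47 ± 0.16 (edgeR adjusted p = 0.0344), though its libraries overlapped and the call was lost without control replicate 1, shRNA-1 replicate 1 or 2, or shRNA-2 replicate 2 or 3 (edgeR adjusted p 0.0529 to 0.142). Fos differed by 0.19 ± 0.34 (edgeR adjusted p = 0.692) and Junb by -0.27 ± 0.14 (edgeR adjusted p = 0.143). The hairpin that left less Syncrip, shRNA-1, gave the lower level of Fosl2, Klf6, Jun, Atf3 and Jund and the higher level of Ier2. Fos, Junb and Egr1 did not pass between the hairpins, and the part of the remaining Syncrip was not tested.

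Per kilobase of annotated exon, the control levels were 48.5 CPM for Ier2, 45.2 for Jund and 44.9 for Junb, then 19.2 for Klf6, 3.75 for Jun, 2.34 for Fosl2, 1.40 for Fos, 1.28 for Atf3, 0.935 for Egr1 and 0.0184 for Fosb. First-strand synthesis from the poly(A) tail can favour the end of a transcript, so this order is approximate. In gene structure, Ier2, Jun, Junb and Jund are single-exon genes, 44.4% of the 9 genes tested, against 2.28% of 10433 tested genes with an annotated 3′ untranslated region. The letters ATTTA, the core of the AU-rich elements that mark short-lived messages, occur 8 times in that region of Fosl2, 7 times in Klf6, 4 times in each of Fos and Jun, 3 times in Atf3 and in none for Ier2. Of the 9 genes, 55.6% carry 3 or more, against 35.1% of those tested genes, with median region lengths of 1186 and 1003 bases. Egr1 and Junb have 2 each and Jund has 1. No test was run on these features.

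The other genes of the response were taken from lists of related genes. Of 15 feedback genes tested, which shut the response off, 5 rose and 2 fell with shRNA-1, 8 rose and 2 fell with shRNA-2, and 5 rose with both. Over all genes, 17.4% rose and 17.3% fell with shRNA-1, 24.4% rose and 24.2% fell with shRNA-2, and 9.24% rose with both. Dusp6, a phosphatase that switches ERK off, went from 35.1 ± 2.69 CPM to 117 ± 42.7 and 282 ± 24.2 CPM, a rise of 1.74 ± 0.23 (edgeR adjusted p = 0.000402) with shRNA-1 and 3.01 ± 0.24 (edgeR adjusted p = 3.39e-06) with shRNA-2. Zfp36l1, whose protein binds ATTTA elements and promotes decay, rose by 1.05 ± 0.27 with shRNA-1 (edgeR adjusted p = 0.0120) and 2.81 ± 0.28 with shRNA-2 (edgeR adjusted p = 1.19e-05). Its shRNA-1 call was lost without shRNA-1 replicate 3 (adjusted p = 0.0581). Dusp1, a phosphatase of the stress kinases, rose by 2.47 ± 0.29 with shRNA-2 (edgeR adjusted p = 3.80e-05) and by 0.83 ± 0.29 with shRNA-1 (edgeR adjusted p = 0.0440). That shRNA-1 call was lost without any 1 of the control libraries, shRNA-1 replicate 2 or 3, or shRNA-2 replicate 2 or 3, with 0.43 (edgeR adjusted p = 0.241) without shRNA-1 replicate 3. Another pair from that list, named after their values were seen, are Zfp36, a relative of Zfp36l1 that rose by 1.48 ± 0.23 and 1.67 ± 0.23 (edgeR adjusted p = 0.000847 and 0.000116), and Nab1, a corepressor of EGR proteins that fell by 1.18 ± 0.12 and 0.66 ± 0.11 (edgeR adjusted p = 6.23e-05 and 0.000545). Without shRNA-1 replicate 3, 3 feedback genes in place of 5 rose with both hairpins. The median log2 fold changes of the list were 0.17 and 0.89, against 0.023 and 0.0043 over all genes.

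Of 12 other immediate early genes tested, 5 rose and none fell with shRNA-1, and 7 rose and 1 fell with shRNA-2, beside 17.4% and 24.4% of all genes that rose. The 3 that rose with both were Ier5, Csrnp1 and Klf10. Ier5, which modulates the heat shock response, went from 31.0 ± 3.66 CPM to 51.8 ± 8.96 and 107 ± 5.58 CPM (0.74 ± 0.15, edgeR adjusted p = 0.00288, and 1.78 ± 0.15, edgeR adjusted p = 3.97e-06). Klf10, a factor induced by TGF-beta, rose by 0.73 ± 0.14 (edgeR adjusted p = 0.00206) and 0.55 ± 0.14 (edgeR adjusted p = 0.00560). Csrnp1, a nuclear protein, rose by 0.72 ± 0.18 (edgeR adjusted p = 0.00910) and 0.97 ± 0.17 (edgeR adjusted p = 0.000770). Without shRNA-1 replicate 2 its shRNA-1 value no longer passed (adjusted p = 0.0552). The medians of the list were 0.50 and 0.76, and with total-count scaling 1 of its genes rose with both.

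The bZIP partners of AP-1 moved less as a list: of 10 tested, 1 rose and 1 fell with shRNA-1, 3 rose and 1 fell with shRNA-2 (24.4% and 24.2% of all genes), and none rose or fell with both. Without shRNA-2 replicate 1, 2 of them rose with both, and 1 did without shRNA-1 replicate 2 or shRNA-2 replicate 3. Mafg, a small MAF protein, was at 219 ± 17.3 CPM in the control and did not pass in either comparison (-0.10 ± 0.15 and -0.08 ± 0.15), and Jdp2, a JUN dimerization protein, fell by 0.38 ± 0.13 with shRNA-1 (edgeR adjusted p = 0.0349). That call was lost without control replicate 2 or 3 or any 1 of the shRNA-1 libraries (edgeR adjusted p up to 0.140). Of 18 kinases and factors upstream of the immediate early genes, 2 rose and 3 fell with shRNA-1 and 3 rose and 5 fell with shRNA-2, with 1 higher and 2 lower with both. These shares are close to those of all genes, 17.4% higher and 17.3% lower with shRNA-1 and 24.4% and 24.2% with shRNA-2, and without control replicate 1 or shRNA-2 replicate 1 the number higher with both was 2. The second of those that fell with both, Rps6ka5, lost its shRNA-1 call without any 1 of the libraries but shRNA-2 replicates 1 and 2 (edgeR adjusted p up to 0.125). Mapk8, which encodes the kinase JNK1 that phosphorylates c-JUN, fell by 1.22 ± 0.13 (edgeR adjusted p = 0.000111) and 0.58 ± 0.12 (edgeR adjusted p = 0.00257). Map2k1, which encodes the kinase MEK1 that activates ERK, rose by 0.64 ± 0.15 (edgeR adjusted p = 0.00740) and 0.71 ± 0.15 (edgeR adjusted p = 0.00220). Of 5 genes listed for JUN turnover, 3 rose with both hairpins, namely Itch, Det1 and Rfwd2 (9.24% of all genes did), and 1 fell with shRNA-1. The one that fell, Fbxw7, which encodes the substrate receptor of a ubiquitin ligase of c-JUN, changed by -1.25 ± 0.20 with shRNA-1 (edgeR adjusted p = 0.000915) and by -0.14 ± 0.19 with shRNA-2 (edgeR adjusted p = 0.558). Itch, a ubiquitin ligase of JUN proteins, rose by 1.29 ± 0.13 (edgeR adjusted p = 8.60e-05) and 0.54 ± 0.13 (edgeR adjusted p = 0.00531). Det1 lost its shRNA-2 call without control replicate 1 or 3 or shRNA-2 replicate 2 (edgeR adjusted p up to 0.105), and Rfwd2 its shRNA-1 call without shRNA-1 replicate 3 (edgeR adjusted p = 0.0509). With total-count scaling none of the 3 passed with both hairpins. The medians of these 3 lists, partners, upstream and turnover, were 0.10, -0.11 and 0.47 with shRNA-1 and 0.17, -0.01 and 0.49 with shRNA-2.

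Of 13 known targets of AP-1 or EGR proteins that were tested, 6 rose with shRNA-1, 9 with shRNA-2 and 6 with both, and none fell. Over all genes, 17.4%, 24.4% and 9.24% rose in the same order. Spp1 went from a mean of 199 CPM in the control (138, 141 and 318 CPM) to 95.9 CPM with shRNA-1, which was not called. It rose to 719 CPM with shRNA-2. Its shRNA-1 change ran from -1.32 to 0.46 over the 20 alternatives. It passed as lower there without shRNA-2 replicate 1 or 2 (edgeR adjusted p = 0.0167 and 0.0250), among others. Ccnd1 passed as lower with shRNA-1 in a fit of the groups compared alone (edgeR adjusted p = 0.0455), but not in the main fit. With shRNA-2, Ccnd1 rose from a mean of 42.0 to 105 CPM. Both rises held in all 20 alternatives, at 1.34 to 2.48 for Spp1 and 1.11 to 1.41 for Ccnd1. Hmox1, the haem-degrading oxygenase, rose by 2.06 ± 0.50 (edgeR adjusted p = 0.00832) and 1.64 ± 0.49 (edgeR adjusted p = 0.0163, lost without control replicate 1 at 0.0651 and without shRNA-2 replicate 2 at 0.0510). Mmp9, a secreted protease, went from 29.7 ± 7.23 CPM to 152 ± 52.6 CPM with shRNA-1 and 51.4 ± 6.17 CPM with shRNA-2, changes of 2.36 ± 0.25 (edgeR adjusted p = 0.000122) and 0.79 ± 0.25 (edgeR adjusted p = 0.0191, up to 0.0760 without control replicate 2 or 3). Cd14, the lipopolysaccharide co-receptor and itself a monocyte marker, rose by 1.10 ± 0.32 with shRNA-1 (edgeR adjusted p = 0.0192, up to 0.0857 without control replicate 1 or 2 or shRNA-1 replicate 2 or 3) and 2.38 ± 0.32 with shRNA-2 (edgeR adjusted p = 0.000105). Several targets on the list are macrophage genes too, and the marker sums above moved with them in the shRNA-2 libraries. The medians were 0.59 and 1.16, and without control replicate 2 the number that rose with both was 3. With the log2 ribosomal RNA share added to the fit, the number that rose with both hairpins was 1 for targets, 2 for feedback genes and 1 for JUN turnover. As said above, that fit cannot cleanly separate the share from shRNA-1.

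**Figure D5:**
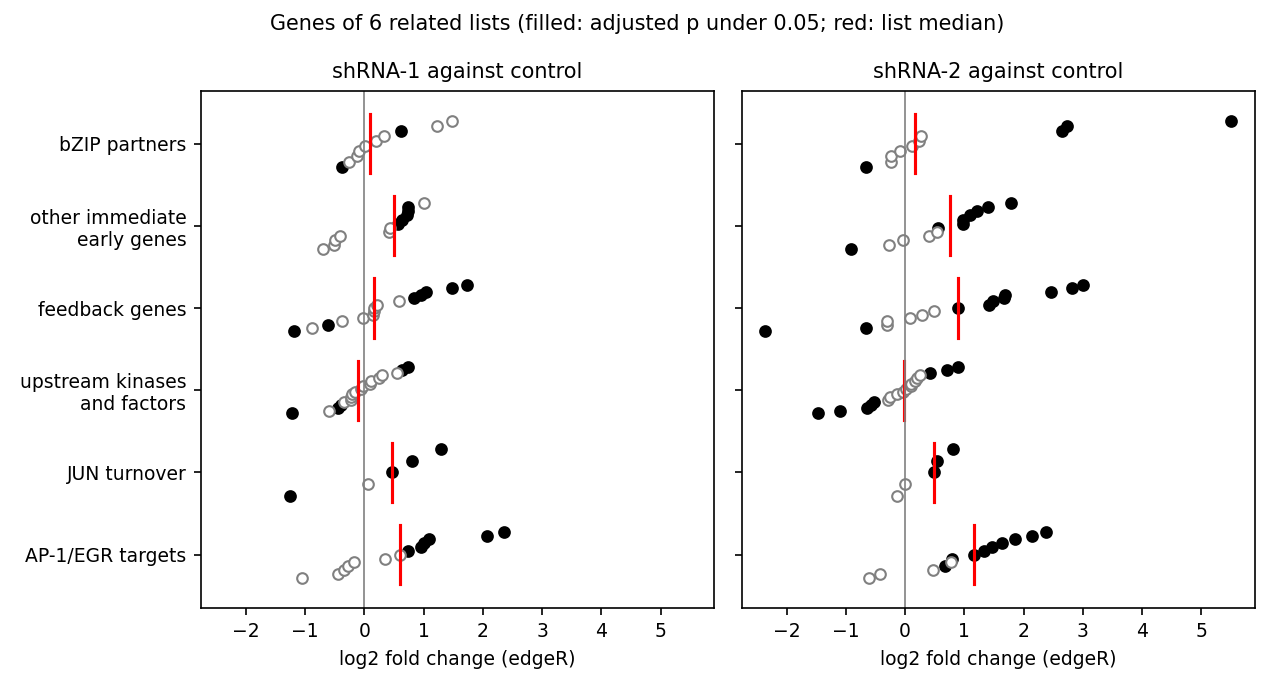
Log2 fold change (edgeR) of each tested gene of 6 related lists, for shRNA-1 against control and shRNA-2 against control; filled points pass an adjusted p of 0.05 and the red line is the list median. The medians of feedback genes and of AP-1 or EGR targets, 0.89 and 1.16 with shRNA-2, lie furthest to the right.

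Across the 9 libraries, the genes whose log2 CPM followed each member most closely were picked from 8673 genes with a mean of at least 5 CPM. The libraries share their groups, so these Pearson values mostly follow the group means and describe likeness only. Fosl2 was most like Dusp6 (r = 0.991), Rara (r = 0.991) and Myadm (r = 0.990), and Jun was most like Smim3 (r = 0.997), Evi2a (r = 0.996) and Hpse (r = 0.990). Klf6 was most like Cmtm3, Slfn1 and Creb3 (r = 0.994 for each), and Atf3 like Aga (r = 0.993), Hcfc1r1 (r = 0.992) and Stx3 (r = 0.990). Jund followed Acp5 (r = 0.984), Colgalt1 (r = 0.980) and Plekhm2 (r = 0.978), and Fos followed Bbc3 (r = 0.966), Pirb (r = 0.963) and Twf1 (r = 0.962). Junb followed Adam9 (r = 0.965), Zwint (r = 0.963) and Osm (r = 0.960). Ier2 and Egr1 were matched less closely, Ier2 by Gna11 (r = 0.955), Eif4a-ps4 (r = 0.946) and Spint2 (r = 0.943) and Egr1 by Stxbp3a (r = 0.895), Stard3 (r = 0.893) and Oaz1-ps (r = 0.888).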

How the data were processed

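The cells, hairpins and time are given at the start of the report. The deposited tables hold counts per gene, 1 table per library, with 39179 entries each. Per the submitters' processing notes, STAR 2.3.0e, HTSeq 0.6.0 and the mm10 build were used. Gene annotation, strandedness and handling of multi-mapping reads: not given in the sources used here. Per the labels' protocols, the first cDNA strand was primed with oligo-dT and the second with random decamers.

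Entries were summed by symbol. Genes were filtered with filterByExpr, which removed 0.0908% of counts, and all 9 libraries were fitted with group as the only term in edgeR 4.0.16 (TMM scaling, quasi-likelihood test, R 4.3.3). P-values were adjusted by Benjamini-Hochberg over all 12663 genes, with a threshold of 0.05. The script was tested on simulated counts. Alternatives used DESeq2 1.42.0, limma 3.58.1 and other scalings, filters, thresholds and sample sets. Depth limits the precision for Fos, Fosb, Egr1 and Atf3. No 2 libraries of a group agreed within counting noise (chi-square per degree of freedom 19.0 to 137). Positions and gene structures are from GENCODE M21 on GRCm38, the assembly of mm10. The genes followed and the lists were chosen with earlier results of these data known. List genes are named by a rule: up to 3 per list called with both hairpins in one direction with the largest mean change, or else the 2 highest.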

Additional observations from a re-analysis of the deposited data

How the results depend on the processing

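Of 27 results for the 9 genes (3 comparisons each), no called value changed sign under 20 alternatives, and DESeq2, limma-voom, DESeq2 size factors, a filter of 5 CPM in 3 libraries and leaving out ribosomal RNA genes changed no call. Values near 0 that did not pass changed sign in some alternatives, such as Junb with shRNA-1 under total counts (-0.07) and Jund with shRNA-2 without control replicate 3 (0.06). Egr1 passed with shRNA-2 with no filter (adjusted p = 5.37e-05), in a fit of the groups compared alone (0.0198), with ribosomal RNA share added as a covariate (1.86, 0.0149) and without shRNA-1 replicate 3 (0.0222). Between the hairpins Egr1 passed with no filter (0.00186), with the covariate (1.42, 0.0339) and without shRNA-1 replicate 3 (1.38, 0.0196). Members called higher with shRNA-1 than with shRNA-2, 1 at first, numbered 0 with total counts, with the groups compared alone and at an adjusted p under 0.01, 2 with no filter and with the covariate, and 0 to 2 with a library left out. At 0.01, the calls of Egr1 with shRNA-1, Junb with shRNA-2 and Ier2 between hairpins were lost.

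All genes called with shRNA-1, 4389, numbered 1358 with the covariate, 2300 at 0.01, and 2916 to 5178 with a library left out (2916 without control replicate 3, 2925 without shRNA-1 replicate 2). Between hairpins, 5192 became 3318 at 0.01. Scaling to total counts moved the all-gene median to -0.23 (shRNA-1) and -0.21 (shRNA-2), and the share of calls that were higher from 50.1% to 23.8% and from 50.2% to 33.6%. The covariate moved that share to 60.9% with shRNA-1. The ribosomal RNA share did not overlap between control and shRNA-1 libraries, so the covariate cannot be cleanly separated from that hairpin. Gm26924, a ribosomal RNA gene in the covariate, reversed to -0.039 with shRNA-1. The cause of the other changes was not tested.

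Replicate numbers were not taken to pair the libraries, since not every same-numbered pair had r over 0.1. Of the 9 such pairs (r from -0.125 to 0.299), 6 did, all 3 pairs of number 1 among them. Of 18 pairs with different numbers, 2 did. For 5 of 9 libraries, the best correlation in both other groups was with their own number. Some pairing may therefore remain. With the replicate number as a block, 26 of 27 results kept their call, and Ier2 passed with shRNA-1 (0.32, adjusted p = 0.0499). The block called 4963 genes with shRNA-1, 6645 with shRNA-2 and 5640 between hairpins.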
